A study of Mus musculus with 12 samples.

Results

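The comparison described here is that of mouse miRNAs in undepleted serum drawn after against before tumour cell injection, that is, in serum RNA that was sequenced without removing the tRNA fragments. miRNAs were kept if they had at least 4 counts in 3 or more of the 6 undepleted libraries. Of 442 mouse miRNAs counted at least once in these libraries, 165 passed, out of 874 in all 12 libraries of the series. A group is 3 female athymic NCr nude mice (mice 1046, 1047 and 1069), bled before the injection or 2 weeks after SH-SY5Y cells had been placed beneath the renal capsule. The injected line, SH-SY5Y, was derived from a human neuroblastoma, and NCr nude mice lack a thymus and so accept human grafts. The animals were 4 to 6 weeks old at implantation. Each library came from RNA of 50 μl of serum, and the same 3 animals form both groups, so that every later serum has an earlier one of the same mouse. Mice without a graft at the later time point were not analysed here, so tumour, surgery, repeated bleeding and elapsed time cannot be told apart.

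miRNAs are short RNAs that guide Argonaute proteins to messenger RNAs, mainly by pairing of the seed, bases 2 to 8 counted from the 5′ end. Outside cells they circulate bound to proteins or inside vesicles, and much of what is found in serum is released by blood cells, so that lysis of red cells can shift a serum profile. The deposited tables name mature miRNAs by miRBase accession only. The study pairs 1 accession with a name, MIMAT0000527 with mmu-miR-16-5p. The other miRNAs are therefore given by accession, with no statement on their function.

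mmu-miR-16-5p is abundant in red blood cells and in serum, where it often serves as a reference, and its targets include the anti-apoptotic Bcl2. Its sequence is shown with that of miR-15a-5p and miR-15b-5p, which are encoded beside its 2 gene copies and share its seed (capitals; RefSeq, GRCm38.p6).
mmu-miR-16-5p: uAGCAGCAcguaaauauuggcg
mmu-miR-15a-5p: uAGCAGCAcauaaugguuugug
mmu-miR-15b-5p: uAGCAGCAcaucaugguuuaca
The same mature miR-16-5p is read from chr14:61631936-61631957 (minus strand, Mir16-1) and from chr3:69009918-69009939 (plus strand, Mir16-2, in an intron of Smc4). Mir16-1 lies within the long non-coding Dleu2, where an exon annotated for at least 1 transcript overlaps its hairpin. Its counts do not tell these copies apart, and the levels of its seed relatives could not be looked up by name.

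The undepleted libraries were small, holding 21235 to 97183 mouse miRNA counts before injection and 49443 to 68140 after it. The log2 total differed by -0.03 between the groups (after minus before, n = 3 each, exact two-sided permutation test, p = 1). The number of miRNAs with at least 4 counts was 156 ± 29.4 before and 159 ± 10.1 after (SD, n = 3 each, exact two-sided permutation test, p = 1, where 0.1 is the smallest value possible). The serum of mouse 1069 before injection gave the smallest library, with 122 detected miRNAs against 173 in each of the other two sera drawn before. Thinned to 21235 counts, those 2 libraries held 102 and 114.

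Few miRNAs made up most of the counts. In each library 5 or 6 miRNAs held 50% of the counts and 27 to 33 held 90%, and the 165 filtered miRNAs held 99.5% to 99.7%. mmu-miR-16-5p was the most abundant entry in the 3 sera drawn before injection, at 17.5%, 17.8% and 14.5% of counts in mice 1046, 1047 and 1069. After injection it held 10.4%, 9.38% and 7.14%. In all 3 later sera the first place was taken by MIMAT0000221, which went from 5.65%, 6.62% and 4.95% of counts to 13.97%, 15.1% and 19.9%. MIMAT0001632, also abundant, went from 10.1%, 11.8% and 9.45% to 6.04%, 4.69% and 3.69%. MIMAT0000531, by contrast, held 12.9% to 13.9% in all 6 libraries.

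Individual miRNAs were tested with DESeq2, which scales libraries by median-of-ratios size factors, giving normalised counts, and pulls log2 fold changes towards 0 where they are uncertain. Changed miRNAs are those that moved at least 2-fold with a Benjamini-Hochberg adjusted p below 0.05. Of the 165 miRNAs, 108 passed the independent filtering of DESeq2 on mean count. The other 57, with mean normalised counts of up to 10.5, were given no adjusted p and are called untested here. Of the 108, 12 were changed (11.1%), 9 of them higher after injection (8.33%) and 3 lower (2.78%). A further 9 had an adjusted p under 0.05 but changed less than 2-fold, 2 of them higher and 7 lower, so that 21 passed on the p-value alone (19.4%). With the mouse as a replicate block 16 passed on the p-value alone, 15 of them among the 21. The median log2 fold change over the 165 miRNAs was -0.06, with quartiles of -0.36 and 0.41.

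**Figure D1:**
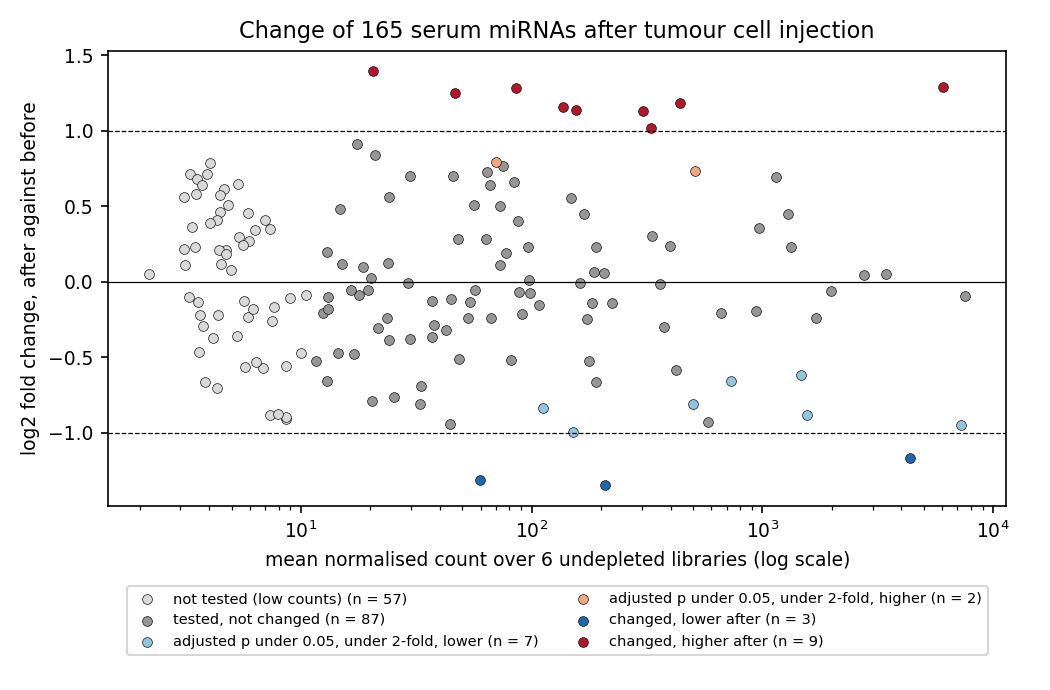
Log2 fold change (after against before, DESeq2 with prior) against mean normalised count on a log axis for the 165 filtered miRNAs, coloured by call, with dashed lines at 2-fold. The 9 changed miRNAs that rose spread from a mean of 20.5 to 6080 normalised counts, and those that fell lie between log2 fold changes of -1.35 and -1.17.

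The largest rise in absolute level was that of MIMAT0000221. Its normalised counts were 3425, 4279 and 2423 before injection in mice 1046, 1047 and 1069, and 7505, 8148 and 10700.4 after it. All 3 later sera lay above all earlier ones, and the means rose from 3376 ± 929 to 8785 ± 1690 (SD, n = 3 each). In DESeq2 the log2 fold change was 1.29, with a standard error of 0.25 and an adjusted p of 1.86e-05. MIMAT0000565, a miRNA of lower level, had 53.0, 48.1 and 34.6 normalised counts before and 89.1, 125.6 and 161.1 after (DESeq2, log2 fold change 1.28, SE 0.31, adjusted p = 0.000665). Its groups did not overlap either.

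Another 6 of the 9 that rose showed the same order, with every later serum above every earlier one. These were MIMAT0003454, MIMAT0000140, MIMAT0000141, MIMAT0000161, MIMAT0000904 and MIMAT0000609, with log2 fold changes of 1.14, 1.13, 1.16, 1.02, 1.18 and 1.25 and standard errors of 0.27 to 0.36. The ratio of their mean levels after to before lay between 2.18 for MIMAT0000161 and 2.95 for MIMAT0000609. MIMAT0000609 rested on few reads, with 47, 45 and 4 raw counts before and 89, 61 and 69 after. The last of the 9, MIMAT0004899, had the largest fitted change on the least data (DESeq2, 1.39, SE 0.47, adjusted p = 0.0200). Its raw counts were 18, 13 and 1 before and 14, 27 and 56 after, its groups overlapped, and in mouse 1046 its normalised count hardly moved, from 11.22 to 11.04.

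The 3 changed miRNAs that fell covered a wide range of levels. MIMAT0001632 had 6143, 7620 and 4626 normalised counts before injection in mice 1046, 1047 and 1069 and 3245, 2530 and 1987 after it (DESeq2, log2 fold change -1.17, SE 0.25, adjusted p = 0.000114). MIMAT0000145 had 382, 344 and 184 before and 95.4, 111 and 125 after (DESeq2, log2 fold change -1.35, SE 0.28, adjusted p = 0.000113). MIMAT0000156 had 77.3, 73.9 and 112.9 before and 22.1, 36.3 and 34.8 after (DESeq2, log2 fold change -1.31, SE 0.33, adjusted p = 0.000861). None of these 3 overlapped between the groups, and their mean levels before were 2.37 to 2.83 times those after.

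**Figure D2:**
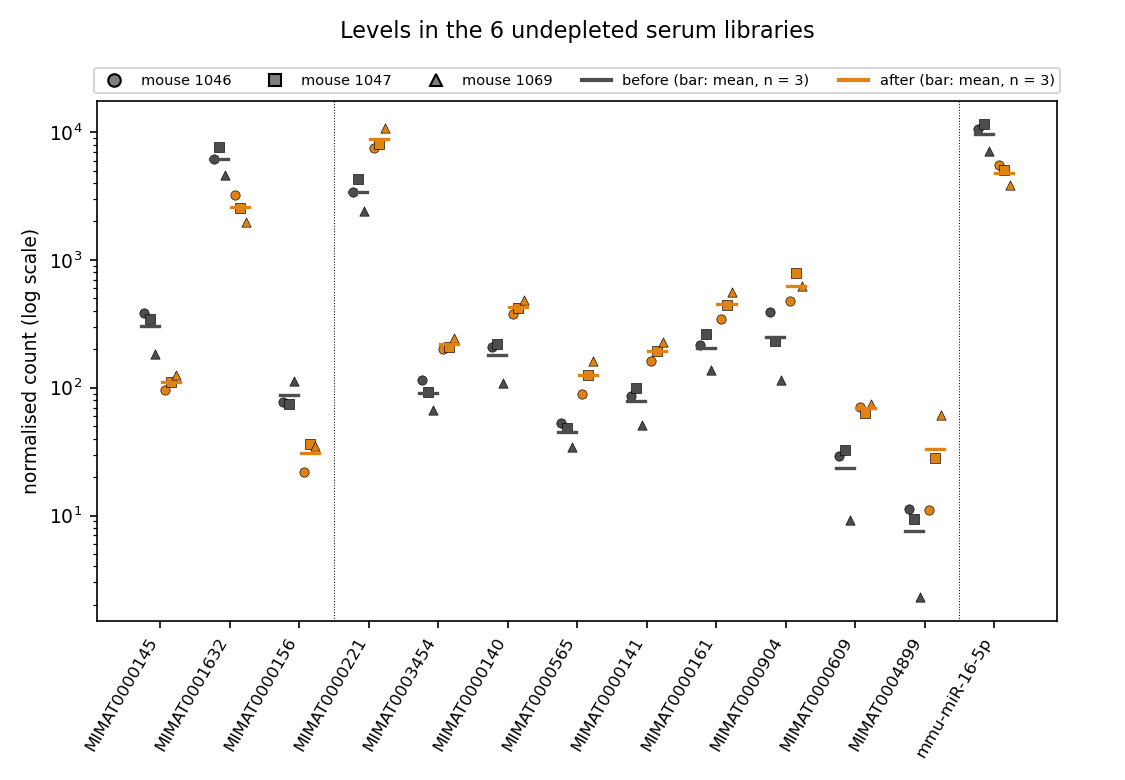
Normalised counts (log axis) of the 12 changed miRNAs and mmu-miR-16-5p in the 6 libraries, with 1 symbol per mouse, grey before and orange after injection, bars marking group means (n = 3). The groups lie apart for every miRNA shown except MIMAT0004899, and the triangle of mouse 1069 before injection is the lowest grey symbol for all 9 miRNAs that rose.

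mmu-miR-16-5p, the sequence given above, had 10589, 11503 and 7086 normalised counts before injection in mice 1046, 1047 and 1069, and 5572, 5056 and 3842 after it. Each later value was below each earlier one, and the means were 9726 ± 2332 and 4823 ± 888 (SD, n = 3 each). In DESeq2 it fell by 0.95 on the log2 scale (SE 0.24, adjusted p = 0.000907), which misses the 2-fold cut-off by little. It passed the cut-off with edgeR (-1.04) and without the prior (-1.01). Haemolysis, which the study assessed from free haemoglobin, is not among the values used here, so the part of red cell lysis in the level of this miRNA was not tested.

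The other 6 miRNAs that fell with an adjusted p under 0.05 but less than 2-fold were MIMAT0000526, MIMAT0000652, MIMAT0000540, MIMAT0000247, MIMAT0014943 and MIMAT0000128. MIMAT0000526 came closest to the cut-off, with 224, 219 and 171 normalised counts before and 97.0, 109.0 and 89.2 after (log2 fold change -0.999, standard error 0.25). The remaining 5 had log2 fold changes between -0.88 and -0.62. With the mouse as a block, MIMAT0000247, MIMAT0014943 and MIMAT0000128 no longer passed (DESeq2, adjusted p = 0.0895, 0.0939 and 0.114). All 7 that fell less than 2-fold, mmu-miR-16-5p included, were lower after injection in 3 of 3 mice without overlap between the groups. The 10 that fell with an adjusted p under 0.05 made up 38.2%, 40.4% and 34.2% of the counts before injection and 23.4%, 20.5% and 16.6% after it. MIMAT0000379 and MIMAT0000517, which rose less than 2-fold, had log2 fold changes of 0.80 and 0.73, and MIMAT0000517 was not higher in mouse 1046. Neither passed with the block, at adjusted p-values of 0.159 and 0.123 in DESeq2.

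Separation of the groups was common among the 165 miRNAs, whether called or not. The 3 later sera lay above the 3 earlier ones for 31 miRNAs (18.8%) and below them for 24 (14.5%), together 33.3%. Changed miRNAs were apart in 11 of 12 cases, but they were called from these same values, so this adds no support to the calls. The direction was the same in all 3 mice for 77 of the 165 (46.7%), 38 higher and 39 lower. Of the 57 untested miRNAs, 7 were apart with higher and 5 with lower later values.

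Not all of the abundant miRNAs were called. Among the 8 with the highest mean level, MIMAT0000531, MIMAT0000208, MIMAT0000539, MIMAT0000154 and MIMAT0000248 had adjusted p-values of 0.607 to 0.928 in DESeq2. With n = 3 per group, these values do not show that the levels were unchanged. MIMAT0000248 was lower after injection in 3 of 3 mice, with a log2 fold change of -0.24 and a standard error of 0.26. For MIMAT0000154 these were -0.06 and 0.23. MIMAT0000531 had 8315, 8313 and 6821 normalised counts before and 7399, 7039 and 7477 after, with a log2 fold change of -0.09 and a standard error of 0.20. For MIMAT0000208 the mean was 3381 ± 876 before and 3501 ± 87.4 after (SD, n = 3 each). The sign of changes this small depended on the scaling: that of MIMAT0000539 was 0.04 here and -0.02 with TMM factors.

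The median standard error of the log2 fold change, fitted with the prior, was smaller at greater depth. It was 0.51 for the 55 miRNAs with a mean under 10 normalised counts and 0.40 for the 42 from 10 to 50. It was 0.30 for the 37 from 50 to 200 and 0.24 for the 13 of 1000 or more. Under a mean of 10 it did not keep rising as counts fell. It was 0.515 for MIMAT0005443 (mean 4.42), 0.507 for MIMAT0017040 (3.13) and 0.480 for MIMAT0000144 (2.20). With the prior in the fit, these values do not give the measurement precision of miRNAs with so few counts. Of the 12 changed miRNAs, 2 had means under 50 normalised counts, out of 40 tested from 10 to 50. Calls numbered 4 of 37 tested from 50 to 200, 4 of 18 from 200 to 1000 and 2 of 13 at 1000 or more. The spread between libraries before injection rested on 1 of them. For the 68 miRNAs with means of at least 50, the median coefficient of variation was 24.6% before and 14.5% after, and it was larger before for 53 of the 68. Without mouse 1069 in both groups it was 10.9% before and 10.5% after, and larger before for 28 of the 68. Across the 165 miRNAs the log10 counts of 2 libraries correlated with Pearson's r of 0.941 to 0.974 within the sera drawn before, 0.966 to 0.975 within those drawn after and 0.897 to 0.967 between the groups, values that describe likeness over miRNAs sharing a library.

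The library of mouse 1069 before injection was low for the calls that rose, but not for them alone. Its normalised count was the lowest of the 3 earlier sera for 9 of 9 of these miRNAs, against 44 of the 68 miRNAs with means of at least 50. MIMAT0000609 and MIMAT0004899 are not among the 68. The 9 were called from these same values, so this pattern is not independent of the calls. That library was also the lowest for MIMAT0001632, MIMAT0000145, mmu-miR-16-5p, MIMAT0000526, MIMAT0000652, MIMAT0000540, MIMAT0014943 and MIMAT0000128, which fell. It was the highest for MIMAT0000156 and MIMAT0000247, which also fell. In the later sera mouse 1069 was the highest for 8 of the 9 that rose. The change within mouse 1069 was the largest of the 3 mice for each of the 9, at log2 values of 1.87 to 4.23 on the log2(normalised count + 1) scale. The corresponding changes of MIMAT0000221 were 1.13, 0.93 and 2.14 in mice 1046, 1047 and 1069. For the changed miRNAs that fell and mmu-miR-16-5p, the change within mouse 1069 was not the largest in size. The changes of MIMAT0000145 were -1.99, -1.62 and -0.56, and those of MIMAT0000156 were -1.76, -1.01 and -1.67. Those of MIMAT0001632 were -0.92, -1.59 and -1.22, and those of mmu-miR-16-5p were -0.93, -1.19 and -0.88. Among the other miRNAs that fell with an adjusted p under 0.05, only MIMAT0000247 changed most in mouse 1069, at -0.60, -0.72 and -0.76.

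**Figure D3:**
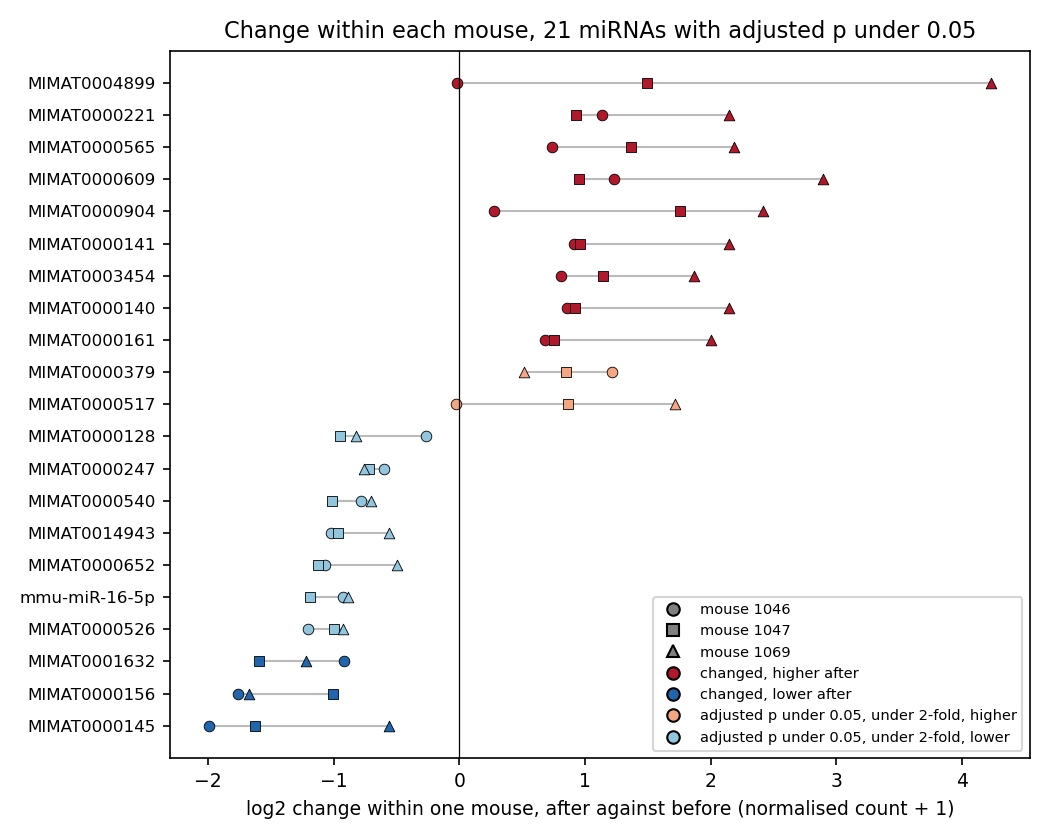
Log2 change of normalised count + 1 within each mouse for the 21 miRNAs with an adjusted p under 0.05, with 1 symbol per mouse and colours for the call. Triangles (mouse 1069) lie farthest right for all 9 changed miRNAs that rose, from 1.87 to 4.23.

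Left out alone, that library took 5 of the 12 calls with it. The count was then 13, with 5 higher and 8 lower, and 7 of the 12 were among them. The 7 were MIMAT0000221, MIMAT0000565, MIMAT0000609, MIMAT0004899 and the 3 that fell. The other 5 had log2 fold changes of 0.83 to 0.99 and adjusted p-values of 9.75e-06 to 0.000720 in DESeq2, so that they were lost to the 2-fold cut-off. mmu-miR-16-5p then passed it, at -1.18. Without both sera of mouse 1069 the count was 7, with 1 higher and 6 lower. The 3 that fell remained, and none of the 9 that rose reached 2-fold, although 8 of them kept an adjusted p under 0.05. MIMAT0000221 was at 0.97 and MIMAT0004899 at 0.50, where its adjusted p was 0.468 in DESeq2. Without mouse 1047, MIMAT0000221 alone was changed, with a log2 fold change of 1.51 and an adjusted p of 0.0208 in DESeq2.

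The balance of higher and lower calls also varied with the scaling and the test. It was 9 to 3 as reported, 8 to 5 with TMM factors, 8 to 6 without the prior, and 11 to 10 with edgeR and without the fold change cut-off. edgeR called all 12 miRNAs. With the mouse as a replicate block 11 of the 12 were called, and MIMAT0004899 was lost, with an adjusted p of 0.0952 in DESeq2.

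**Figure D4:**
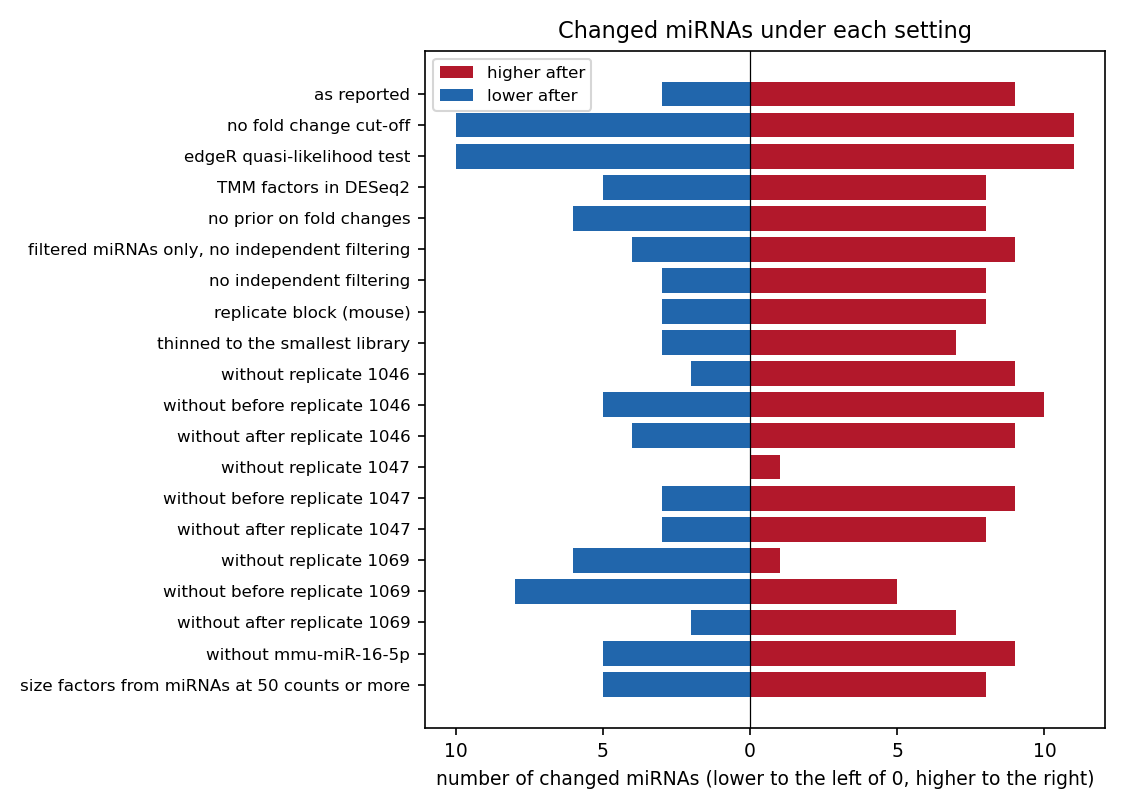
Number of miRNAs changed after injection under each setting, with those that fell drawn left of 0 and those that rose right of 0. The reported setting gave 9 higher and 3 lower, and leaving out mouse 1047 gave 1 higher and 0 lower.

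The authors counted the same libraries against mouse and human miRNAs. Where the counts match, the reads of the later sera do not settle in which species a miRNA was made. The earlier sera were drawn before human cells were injected. The paper holds that sequence can tell of the cell of origin, and it sorts its calls in undepleted serum into murine and conserved miRNAs. Sequences were not compared here. Of the 165 miRNAs, 110 had counts identical to those of a human entry in all 6 libraries and 119 differed from one by at most 1%. Of the 12 changed, 7 matched a human entry exactly, and MIMAT0000221 differed from one by 1 of 39712 counts. mmu-miR-16-5p had the counts of human MIMAT0000069. MIMAT0000141, MIMAT0000161, MIMAT0000904 and MIMAT0000609 were more than 10% away from every human entry. They matched no human entry by count, which says nothing of their sequence.

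Finally, the changes in undepleted serum were set against those in the depleted aliquots of the same sera, where totals were 938706 to 2271549 counts. The difference of the 2 log2 changes was estimated as an interaction of time point and depletion over all 12 libraries with DESeq2, without the prior. No miRNA passed an adjusted p of 0.05 (0% of 874 tested). There were 3 with an unadjusted p under 0.05, and edgeR gave 0 adjusted and 6 unadjusted. The interaction fits give each miRNA a common spread estimate over both kinds of aliquot, although their depths differ by over an order of magnitude. This limits the calls and the intervals. The DESeq2 fit above also has no term for the serum that 2 aliquots share. With the serum as a replicate block there were 0 adjusted and 8 unadjusted in DESeq2, and the intervals were narrower. Over the 12 changed miRNAs the 95% interval reached a median of 0.80 to either side without the block and 0.31 with it. For MIMAT0000221 the difference (undepleted minus depleted) was -0.01, with an interval from -0.81 to 0.79, and with the block 0.03, from -0.20 to 0.26. For mmu-miR-16-5p it was 0.04 (-0.63 to 0.72), and with the block 0.04 (-0.13 to 0.20). The widest interval was that of MIMAT0004899, from -0.74 to 2.74 around 1.00, and with the block from -0.30 to 1.76 around 0.73.

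Of 310 miRNAs tested in depleted aliquots 10.6% were changed. Of the 12 changed in undepleted serum, 7 were changed there and 10 had an adjusted p under 0.05. The fold changes of each kind of aliquot come from separate fits with the prior. Their differences can therefore depart, also in sign, from the interaction estimates made without it. The log2 fold change in depleted and undepleted aliquots was 1.21 and 1.29 for MIMAT0000221, -1.20 and -1.17 for MIMAT0001632, -1.64 and -1.35 for MIMAT0000145 and -1.65 and -1.31 for MIMAT0000156. For mmu-miR-16-5p it was -1.07 and -0.95. The 5 not changed in depleted aliquots were MIMAT0003454 (0.83 and 1.14), MIMAT0000141 (0.98 and 1.16), MIMAT0000161 (0.97 and 1.02), MIMAT0000609 (0.83 and 1.25) and MIMAT0004899 (0.77 and 1.39). Adjusted p-values of the last 2 in depleted aliquots were 0.0677 and 0.122 in DESeq2. Both aliquots come from the same sera, so these values are not independent.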

How the data were processed

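Read counts per mature miRNA, not normalised, were deposited by the authors as a mouse and a human table for each of 12 libraries. The authors trimmed reads with Cutadapt 1.8.1, filtered them on base quality, mapped them with Bowtie 1.1.2 without mismatches (mouse GRCm38/mm10, human GRCh37/hg19) and assigned them by miRBase coordinates. How reads with several loci were counted is not given in the sources used here. A miRNA not listed was taken as 0. The 6 undepleted mouse tables were fitted in R 4.3.3 by DESeq2 1.42.0, as the study also used DESeq2, with time point as the only term, a zero-centred prior, independent filtering and every miRNA with at least 1 count. The script was tested on simulated data with planted changes larger than the fitted changes of the called miRNAs, so that test does not cover changes of their size. Alternatives included edgeR 4.0.16. Human tables of undepleted libraries served only to match counts, and those of depleted libraries were not used. p-values of the comparison of 3 against 3 rest on the spread between libraries, with 1 library per mouse in each group. That spread holds library preparation and counting as well as the mouse. Fits without a library or mouse rest on fewer libraries, and the interaction fits on 12, with 2 aliquots per serum. Except where the mouse or serum was a block, p-values take all libraries as independent, although both groups come from the same mice. Sera are paired by mouse through the labels. Deviations of paired sera from their group means correlated with r of -0.27, -0.24 and -0.14 (68 miRNAs). Single values were tested by exact permutation in Python 3.11.15.

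The set of miRNAs, the lists and the tests were chosen with earlier results of these data known. Named miRNAs were all changed ones, those with an adjusted p under 0.05 below 2-fold, the 8 of highest mean level, and mmu-miR-16-5p. Of 152 miRNA names in 25 lists by tissue or family, 1 could be paired with an accession, so the lists were not evaluated.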

Additional observations from a re-analysis of the deposited data

How the results depend on the processing

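The number of changed miRNAs, 12, became 21 with edgeR and 21 with no cut-off on the fold change, and stayed between 10 and 14 under the other settings that kept all libraries. Leaving out 1 library or 1 mouse gave 1 to 15. With the mouse as a replicate block it was 11. The number with an adjusted p under 0.05 alone, 21, became 33 with edgeR, 16 with the block and 1 to 34 without single libraries or mice, the highest without the library of mouse 1069 before injection. Leaving out mice moved the difference in log2 totals between -0.65 and 0.35 and that in detected miRNAs between -9.5 and 12.5, from -0.03 and 3. Interaction calls numbered 0 under each setting tried, the serum block included. None of the 12 calls reversed under any of the 19 settings tried. With all libraries kept, calls were lost for MIMAT0004899 (no prior, no independent filtering, block, thinning), MIMAT0000140 (thinning to 21235 counts) and MIMAT0000161 (TMM factors, other size factors). Signs turned only for uncalled miRNAs near 0: MIMAT0000539 (0.04) was -0.018 with TMM factors and -0.023 with size factors from miRNAs of at least 50 counts, where MIMAT0000208 (0.05) was -0.056. These size factors, and a fit without mmu-miR-16-5p (14 changed), were chosen after seeing the data, as were the counts on the p-value alone, the spread without mouse 1069 and the interaction intervals with the serum block. Without single libraries or mice, MIMAT0000531 ranged from -0.21 to 0.035, MIMAT0000208 from -0.046 to 0.25, MIMAT0000539 from -0.24 to 0.27, MIMAT0000154 from -0.31 to 0.16 and MIMAT0000248 from -0.47 to 0.016. The cause of these shifts was not tested. Counting depth limits the 57 untested miRNAs.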

Other observations

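In the human tables of the undepleted libraries, 295 miRNAs were counted at least once. None was without a count in the 3 sera drawn before injection while reaching 4 counts in 2 or 3 of the later sera, and none showed the opposite pattern (0 of 295 in each direction). These libraries held few counts, so that human miRNAs below this depth would not have been seen. Entries counted at both time points are excluded from both patterns by definition. Of the 165 filtered mouse miRNAs, 110 had counts identical to those of a human entry in all 6 libraries, the earlier sera included. How many of the 295 entries were free to show either pattern was not determined. Whether the injected cells released human miRNAs into the serum was therefore not tested.

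At the edge of the filter, 18 mouse miRNAs had at least 4 counts in exactly 3 libraries, with 17 to 38 counts summed over the 6 libraries. The 21 with at least 4 counts in exactly 2 libraries, just outside it, had sums of 14 to 22. MIMAT0004861 passed through the 3 later sera only, with 3, 2 and 3 counts before and 5, 4 and 7 after, and MIMAT0001090 through the 3 earlier ones only, with 7, 5 and 4 before and 2, 2 and 2 after. Neither was tested.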
